A study of Mus musculus with 11 samples.

Results

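The pluripotency network genes are 34 mouse genes that embryonic stem cells (ESCs) use to stay undifferentiated: core transcription factors, their coregulators, signalling ligands of the Nodal and Fgf families, and target genes that mark ESCs. They were chosen by gene symbol, and all 34 were found among the 20837 genes that could be named on the array, with 48 of its 55681 probes. Each gene is described by 1 probe, the one with the highest mean of the 3 group means. All 34 probes passed the filter on dim probes, which needed 2 arrays, and 4 of them (Prdm14, Dppa2, Nr0b1 and Tcl1) passed on the ESC arrays only. Fgf4 and Eras passed on both ESC arrays and 1 CSE array, so that they too were kept only through the ESCs. All of these named genes had to differ from the other groups. The study compared otospheres, which are floating spheres grown from dissociated cells of the inner ear, with their tissue of origin, the cochlear sensory epithelium (CSE), and with ESCs, and asked which transcripts are particular to the spheres.

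Otospheres and CSE came from newborn ICR mice at postnatal day 1, with 20 cochleae of 10 mice pooled for each preparation, so that no value belongs to a single animal. The CSE, which holds hair cells and supporting cells, was taken fresh after removal of the spiral ligament and stria vascularis. The otospheres were passaged once in suspension with basic fibroblast growth factor, insulin-like growth factor 1 and heparan sulfate, and filtered to keep the solid spheres. The ESC group held 2 established lines, G4-2 and D3, both at passage 13 and grown without feeder cells in serum with leukemia inhibitory factor (LIF). Each line had 1 array, so that the spread within the ESC group is a spread between lines. Total RNA was labelled with Cy3 and hybridised to 11 single-colour arrays, 6 of otospheres, 3 of CSE and 2 of ESCs, on 2 slides. Arrays 1 and 2 of the otospheres differed by less than the noise between spots of a probe, as did arrays 4 and 5, and each pair was averaged and counted as 1 sample, written OS1-2 and OS4-5. This left 4 otosphere samples (OS1-2, OS3, OS4-5 and OS6), 3 CSE samples (CSE1 to CSE3) and 2 ESC samples (ES1 is G4-2, ES2 is D3). Slide 1 held ES1, OS1-2, OS3, CSE1 and CSE2, and slide 2 held ES2, OS4-5, OS6 and CSE3. Values are log2 of the background-corrected, quantile-normalised signal, and a level of one probe is not comparable with that of another. The share of spots well above the local background was between 55.1% and 71.6% per array, and none of the 34 genes was saturated. The labels do not say whether the samples of a group came from separate cultures, so the p-values measure the spread between these samples. The labelled tissues were checked with marker lists that were chosen with earlier results of these data known, so the check is not independent. In ESCs, 9 of 10 hair cell markers and all 10 supporting cell markers were lower than in CSE, beside 13.2% of all probes. Against otospheres, 3 hair cell and 5 supporting cell markers were lower in ESCs, beside 12.1% of all probes. There, 2 supporting cell markers were higher in ESCs, beside 15.6% of all probes.

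The mouse pluripotency network is built around Oct4 (encoded by Pou5f1), Sox2 and Nanog, which bind together at many enhancers and keep each other active. Around this core, Esrrb, Tfcp2l1, Tbx3, Nr5a2 and Prdm14 hold the naive state, which LIF promotes in culture, whereas Otx2 drives the passage to the later, formative state. Most of these genes are silenced when ESCs differentiate, although several are used again in other tissues, and a few are known from the developing ear.

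Promoter sequences (RefSeq, GRCm38.p6, from upstream of the transcript start to just past it, written in the direction of the gene) are shown for 4 genes because the results turn on them: Nanog, whose probes disagreed, Zfp42, which separated ESCs from the other groups and the ESC lines from each other, and Tfcp2l1 and Esrrb, which differed between otospheres and CSE. The table held 33 promoters of 21 of the 34 genes. Capitals mark the motif named after each sequence, and both strands were searched.
Nanog, chr6:122707239-122707538, plus strand, the first of 2 starts: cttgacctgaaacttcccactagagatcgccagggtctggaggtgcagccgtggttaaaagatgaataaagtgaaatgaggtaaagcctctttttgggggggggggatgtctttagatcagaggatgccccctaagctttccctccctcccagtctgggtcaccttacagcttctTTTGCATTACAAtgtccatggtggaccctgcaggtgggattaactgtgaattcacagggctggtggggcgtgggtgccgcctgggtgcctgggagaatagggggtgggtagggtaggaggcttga
Zfp42, chr8:43306960-43307259, minus strand: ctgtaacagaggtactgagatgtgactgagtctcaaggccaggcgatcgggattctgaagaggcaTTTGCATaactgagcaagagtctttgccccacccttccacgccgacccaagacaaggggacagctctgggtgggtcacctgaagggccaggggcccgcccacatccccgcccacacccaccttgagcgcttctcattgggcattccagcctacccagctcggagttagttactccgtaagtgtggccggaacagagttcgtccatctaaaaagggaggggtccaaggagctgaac
Tfcp2l1, chr1:118627695-118627994, plus strand: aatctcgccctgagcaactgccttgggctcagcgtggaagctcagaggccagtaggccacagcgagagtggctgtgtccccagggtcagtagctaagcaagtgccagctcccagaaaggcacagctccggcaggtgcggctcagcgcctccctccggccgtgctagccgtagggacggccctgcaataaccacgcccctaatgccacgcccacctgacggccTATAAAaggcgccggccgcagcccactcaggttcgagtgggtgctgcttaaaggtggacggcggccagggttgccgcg
Esrrb, chr12:86421394-86421693, plus strand, the second of 2 starts: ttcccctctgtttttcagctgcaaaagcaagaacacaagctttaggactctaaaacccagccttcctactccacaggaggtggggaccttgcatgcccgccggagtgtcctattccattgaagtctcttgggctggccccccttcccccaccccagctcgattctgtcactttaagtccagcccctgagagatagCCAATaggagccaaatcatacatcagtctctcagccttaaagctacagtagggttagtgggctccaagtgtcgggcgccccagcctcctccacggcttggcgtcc
Capitals in the Nanog promoter are the Sox and Oct composite (TTGT, any base, then ATGCAAA) on the opposite strand, between 75 and 64 bases before the start. It was held by 12 of the 32851 RefSeq promoters, which is 0.0365%, and among the 33 promoters of the pluripotency network genes both Nanog starts held it. The shorter octamer core ATGCAAA, which overlaps the composite, stands in capitals in the Zfp42 promoter, again on the opposite strand, 185 to 179 bases before the start. It was found in 4.63% of all promoters and in 3 of the 33, those of Nanog and Zfp42. The Tfcp2l1 promoter shows TATAAA from 28 to 23 bases before the start, a motif of 13.6% of all promoters and of 6 of the 33, and the Esrrb promoter shows CCAAT from 55 to 51 bases before the start, a motif of 37.4% of all and of 13 of the 33. GGGCGG, the GC box, was found in 35.7% of all promoters and in 13 of the 33. A match describes the letters in this window and is not a measured binding site. Prdm14, Sall4, Dppa2, Dppa3, Dppa4, Dppa5a, Gdf3, Tdh, Tfap2c, Fbxo15, Lefty1, Lefty2 and Tbx3 had no entry.

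ESCs stood far above otospheres and CSE in most of the network, while few of the genes differed between otospheres and CSE, at a share near that of all probes. In limma's test, 32 of the 34 genes were higher in ESCs than in otospheres and 0 were lower, beside 15.6% and 12.1% of all 47997 probes tested. Against CSE, 30 were higher in ESCs and 0 were lower, beside 15.6% and 13.2% of all probes. Both counts of higher genes include Prdm14, Dppa2, Nr0b1, Tcl1, Fgf4 and Eras. These were kept only through the ESC arrays, so that their direction was fixed in advance. At an unadjusted p under 0.05, 1 gene was lower in ESCs than in both other groups, the Nanog probe described below. With genes that were not well above background in the other tissue set to their lower bound, explained with the detection counts, the median difference was at least 5.91 between ESCs and otospheres and at least 5.84 between ESCs and CSE on the log2 scale, against 0.03 and 0.06 over all probes. Between otospheres and CSE, 1 gene (Tfcp2l1) was higher in otospheres, beside 4.84% of all probes, and 2 genes (Esrrb and Sall1) were lower, beside 6.19% of all probes. The median difference there was 0.04, with 0.02 over all probes. The ESC comparisons share the ESC samples, and the study drew many of these genes from the same arrays as ESC genes, so that the direction is not independent evidence. In such tissue samples, fewer cells that use a gene and less RNA per cell cannot be told apart.

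**Figure D1:**
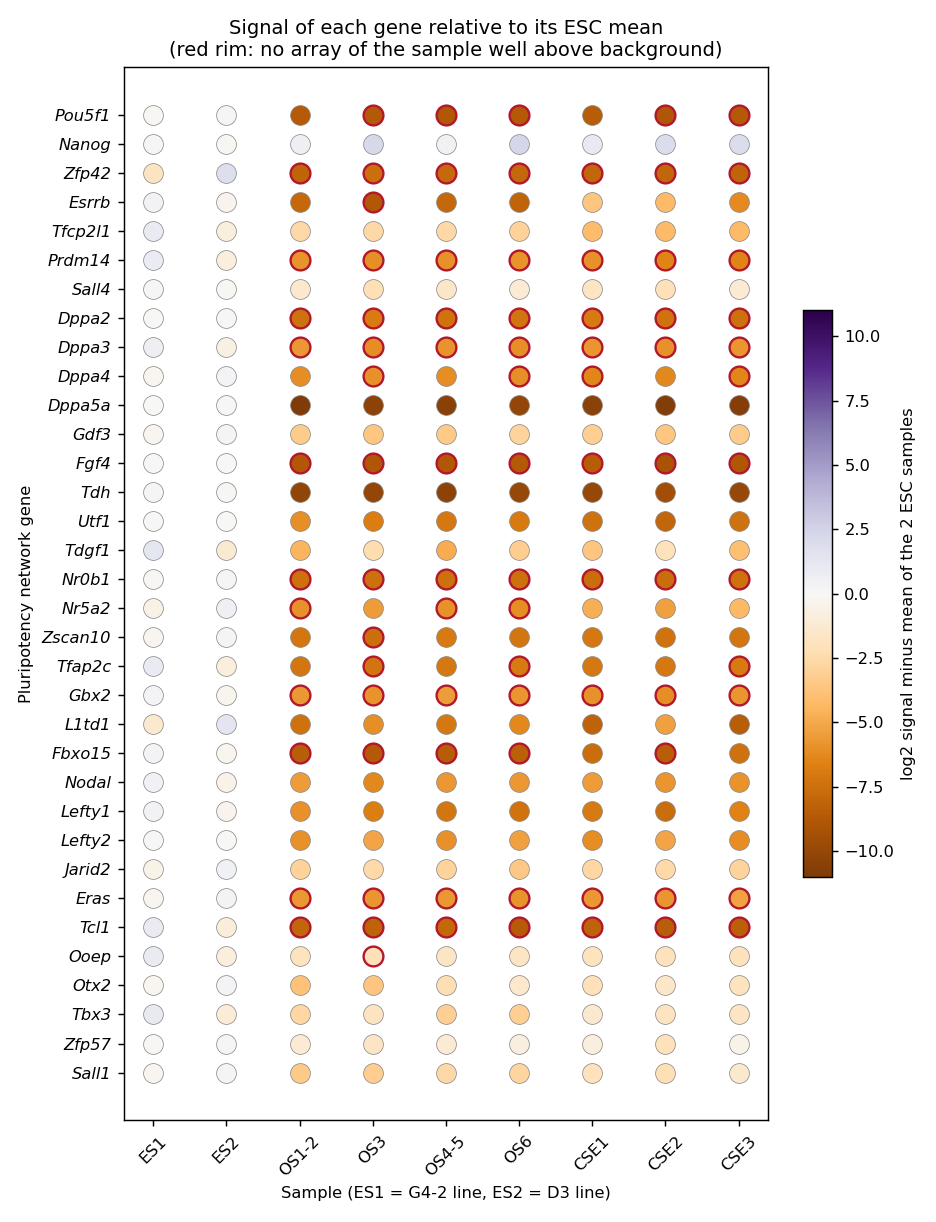
The log2 signal of each of the 34 genes in each of the 9 samples minus the mean of the 2 ESC samples, as colour, so that colours compare samples within a row. A red rim marks samples with no array well above background. Most genes are far below their ESC level in all otosphere and CSE samples, and the Nanog row is the exception.

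Detection separated the genes further. All 34 were well above background on both ESC arrays. On the 6 otosphere arrays, 17 genes were well above background on all, 7 on some and 10 on none, and on the 3 CSE arrays 21 were on all, 4 on some and 9 on none. The 9 genes with no such array in either tissue were Zfp42, Prdm14, Dppa2, Dppa3, Fgf4, Nr0b1, Gbx2, Eras and Tcl1. Fbxo15 was the tenth in otospheres and was well above background on 2 of the 3 CSE arrays. For comparison, 58.5% to 68.2% of all spots passed this mark per otosphere array, and 60% to 71.6% per CSE array. These shares are per array, so they give no direct comparison for passing on all arrays or on none. Near the floor the mark did not follow the signal: Pou5f1 passed at 5.50 on array OS2 but not at 5.56 on array OS1. A gene with no array above background has only an upper limit there, so its difference is given as a lower bound. The bound sets the ESC mean against a floor for the dimmer samples, made for each array from the faintest probe that passed as well above background or, where brighter, from the probe itself. Some probes that did not pass were brighter, such as Esrrb at 5.71 on array OS3. The bound therefore depends on this choice of floor, and "at least" is not a guaranteed minimum.

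Pou5f1, which encodes the core factor Oct4, had log2 signals of 14.02 and 14.27 in the G4-2 and D3 lines, 5.53, 5.41, 5.37 and 5.41 in the otosphere samples and 5.56, 5.25 and 5.39 in the CSE samples. The ESC samples stood apart and the other groups overlapped. It was well above background on 1 of 6 otosphere arrays and 1 of 3 CSE arrays. The difference from otospheres was 8.71 ± 0.17 (SE, limma adjusted p = 5.20e-08) and that from CSE was 8.74 ± 0.18 (limma adjusted p = 8.66e-08), while otospheres and CSE differed by 0.03 ± 0.15 (limma adjusted p = 0.961).

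Nanog, the homeobox factor at the centre of the network, depended on the probe. The probe that the rule selected had 8.50 and 8.26 in ESCs, 9.04, 10.65, 8.82 and 10.75 in otospheres and 9.41, 10.34 and 10.34 in CSE, so that both ESC lines were the lowest samples. Its difference was -1.44 ± 0.58 (SE) from otospheres (limma adjusted p = 0.105) and -1.65 ± 0.62 from CSE (limma adjusted p = 0.0780), and the first of these passed without OS4-5 (-1.77, adjusted p = 0.0497). A second probe with the Nanog accession had 12.50 and 10.58 in ESCs, 5.66, 5.41, 5.50 and 5.41 in otospheres and 5.32, 5.39 and 5.19 in CSE. A further probe, named Nanog in the tables of the study, had 15.44 and 13.92 in ESCs, 5.62, 5.32, 6.0 and 5.81 in otospheres and 5.93, 5.69 and 6.01 in CSE. Both of these were higher in ESCs than in otospheres, by 6.05 (limma adjusted p = 2.44e-05) and 8.99 (limma adjusted p = 1.60e-06). The further probe was well above background on 4 of 6 otosphere arrays and 3 of 3 CSE arrays.

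The selected probe of 5 other genes also gave a smaller difference than another probe of the gene. For Sall4, a zinc finger partner of Oct4, the selected probe had 10.36 and 10.06 in ESCs, 8.75, 8.05, 8.60 and 9.03 in otospheres and 8.46, 8.07 and 9.06 in CSE, with ESCs 1.60 ± 0.33 above otospheres (limma adjusted p = 0.00653). Another Sall4 probe, for which no otosphere or CSE array was well above background, was higher in ESCs than in otospheres (limma adjusted p = 9.35e-08). This places Sall4 at least 142-fold above otospheres and at least 138-fold above CSE on that probe, and at least 14.4-fold and 13.1-fold on the remaining Sall4 probe. For Gdf3, a growth factor of the Nodal branch, the selected probe had 10.87 and 11.31 in ESCs, 7.81, 7.48, 7.68 and 8.24 in otospheres and 7.93, 7.56 and 7.76 in CSE, a difference of 3.29 ± 0.25 from otospheres (limma adjusted p = 3.10e-05). The other Gdf3 probe was not well above background outside ESCs and gave at least 586-fold over otospheres and at least 588-fold over CSE.

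Tdgf1, which encodes the Nodal coreceptor Cripto, had 13.84 and 11.26 in ESCs, 8.03, 10.21, 7.74 and 9.30 in otospheres and 8.87, 10.56 and 8.55 in CSE on the selected probe. OS3, OS6 and CSE2 stood above the other samples of their groups. Its excess in ESCs over otospheres, 3.73 ± 0.92 (limma adjusted p = 0.0146), lost its call without G4-2, with 2.45 and an adjusted p of 0.136. Its excess over CSE, 3.22 ± 0.97 (limma adjusted p = 0.0343), lost its call without G4-2 (1.94, adjusted p = 0.246), without CSE1 (adjusted p = 0.0968) and without CSE3 (adjusted p = 0.100). Both other Tdgf1 probes were higher in ESCs than in otospheres, at least 83.4-fold and at least 183-fold (limma adjusted p = 7.83e-07 and 2.62e-07), as neither was well above background on an otosphere array. The same 3 samples were also the highest of their groups for L1td1, an RNA-binding protein of ESCs, with 13.21 and 15.82 in ESCs, 7.09, 8.42, 7.43 and 8.23 in otospheres and 6.30, 9.14 and 6.07 in CSE. L1td1 was 6.72 ± 0.96 higher in ESCs than in otospheres (limma adjusted p = 0.000904).

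Zfp57, which keeps methylation at imprinted genes, had 9.06 and 9.33 in ESCs, 8.07, 7.48, 8.0 and 8.37 in otospheres and 8.40, 7.15 and 8.68 in CSE on the selected probe. The difference of 1.22 ± 0.41 from otospheres did not pass the threshold (limma adjusted p = 0.0578), nor did that of 1.12 from CSE (limma adjusted p = 0.0901). Without CSE3 both passed (adjusted p = 0.0491 and 0.0495), and without CSE2, or with slide as a block, the difference from otospheres did (adjusted p = 0.0102 and 0.0384). The other Zfp57 probe was 4.20 higher in ESCs than in otospheres (limma adjusted p = 2.35e-06) and 3.84 higher than in CSE (limma adjusted p = 5.26e-06). For Dppa4, a chromatin protein of early embryos, the selected probe, detected on 2 of 6 otosphere arrays, gave 6.07 over otospheres. The Dppa4 probe with the highest ESC mean was not detected outside ESCs and gave at least 120-fold, and the remaining probe, detected on all arrays, gave 2.07. With the probe of the highest group mean for every gene, a choice made after the values were seen that changed the probe of 6 genes, 34 of the 34 genes were higher in ESCs than in otospheres and 32 than in CSE. On these probes 12 genes were well above background on all otosphere arrays and 14 on none. The plot of single probes shows that 10 of the 11 genes with more than 1 accession probe had the same direction on every probe.

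**Figure D2:**
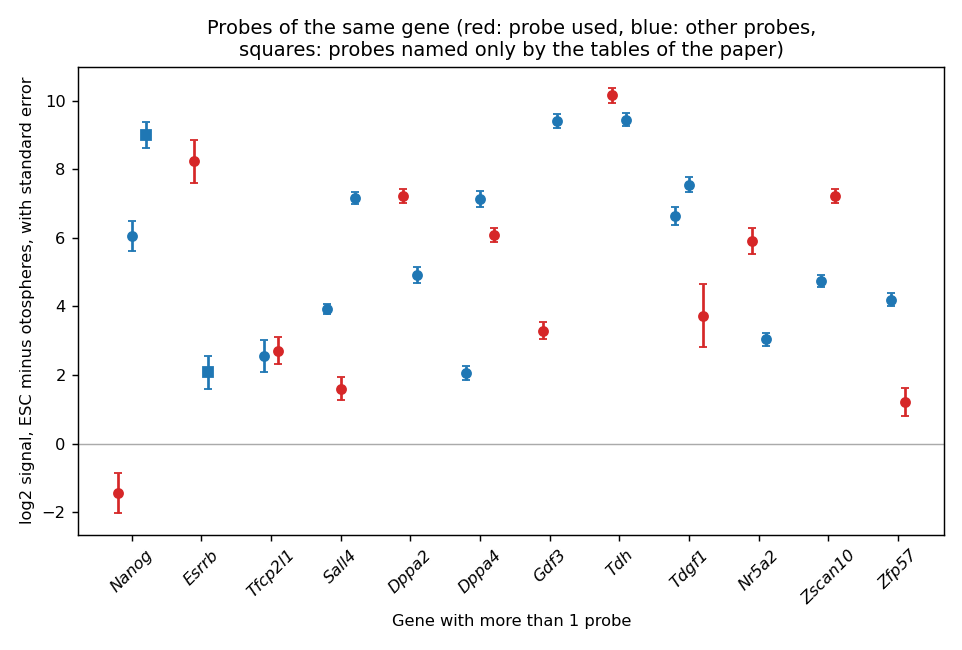
ESC minus otospheres on the log2 scale for each probe of the 12 genes with more than 1 named probe, with the standard error of the limma fit. Red marks the probe used, blue the other probes and squares the probes named only in tables of the study. For probes not well above background in otospheres the value is fitted and the text gives a lower bound. The probe used for Nanog is below 0 at -1.44 while its other probes are at 6.05 and 8.99.

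Among the target genes that mark ESCs, Dppa5a, an RNA-binding protein of early embryos, had 17.16 and 17.25 in ESCs, 6.27, 6.84, 6.70 and 7.13 in otospheres and 6.72, 6.42 and 6.54 in CSE. Although ESCs were 10.47 ± 0.24 above otospheres (limma adjusted p = 7.01e-08), the probe was well above background on all otosphere and all CSE arrays. Tdh, the threonine dehydrogenase on which mouse ESCs depend, behaved alike, with 16.50 and 16.18 in ESCs, 6.18, 6.24, 6.0 and 6.33 in otospheres and 6.33, 6.88 and 6.30 in CSE, a difference of 10.15 ± 0.22 from otospheres (limma adjusted p = 5.20e-08). Utf1, a chromatin factor of undifferentiated cells, had 15.25 and 15.24 in ESCs, 9.17, 8.45, 8.13 and 8.23 in otospheres and 7.83, 7.21 and 7.79 in CSE. All 4 otosphere samples of Utf1 were above all 3 CSE samples, but the difference of 0.88 ± 0.27 did not pass the threshold (limma adjusted p = 0.0785). Utf1 was 6.75 ± 0.31 higher in ESCs than in otospheres (limma adjusted p = 2.41e-06).

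Zfp42, the zinc finger gene also known as Rex1, had 11.19 and 14.89 in ESCs, 4.92, 5.41, 5.17 and 5.13 in otospheres and 5.02, 4.98 and 4.91 in CSE. None of the otosphere and CSE arrays showed it well above background, and ESCs were at least 231-fold above otospheres and at least 242-fold above CSE. The bound over otospheres was 64.4-fold from G4-2 alone and 832-fold from D3 alone. Zscan10, a zinc finger factor of ESCs, had 12.74 and 13.14 in ESCs, 5.79, 5.37, 5.94 and 5.78 in otospheres and 5.84, 5.59 and 5.79 in CSE, with ESCs 7.22 ± 0.21 above otospheres (limma adjusted p = 2.44e-07). Zscan10 was detected on 4 of 6 otosphere arrays and on all CSE arrays, and the tissues overlapped. Ooep, an oocyte and early embryo gene, had 8.75 and 6.95 in ESCs, 5.92, 5.71, 6.15 and 6.13 in otospheres and 5.88, 5.87 and 5.85 in CSE. Its excess in ESCs over otospheres was 1.87 ± 0.41 (limma adjusted p = 0.00869).

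The 10 remaining genes were also higher in ESCs, and all but Tfap2c are given by their lower bounds. Fgf4, the growth factor through which ESCs prepare to differentiate, was at least 433-fold above otospheres and at least 386-fold above CSE. The bounds against otospheres were 365-fold for Fbxo15, an F-box gene activated by Oct4 and Sox2, 245-fold for Tcl1, a coactivator of Akt, and 173-fold for Nr0b1, the orphan nuclear receptor Dax1. They were 129-fold for Dppa2, the partner of Dppa4, 60.6-fold for Dppa3, which protects maternal methylation, and 59.2-fold for Prdm14, a repressor of the primed state. They were 52.1-fold for Gbx2, a homeobox target of LIF signalling, and 51.6-fold for Eras, an ESC form of Ras. From one ESC line alone, the bound was 475-fold in G4-2 and 127-fold in D3 for Tcl1, 106-fold and 33.1-fold for Prdm14, and 96.8-fold and 37.9-fold for Dppa3. Tfap2c, an AP-2 factor of germ cells and trophoblast, was detected on 3 otosphere and 2 CSE arrays, and was 7.13 ± 0.39 higher in ESCs than in otospheres (limma adjusted p = 6.33e-06).

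The Nodal ligand and its feedback inhibitors were high in ESCs and low, but detected, in both tissues. Nodal, the ligand that maintains the epiblast, had 13.16 and 12.22 in ESCs, 7.11, 6.39, 6.97 and 7.0 in otospheres and 7.18, 6.87 and 6.84 in CSE. Lefty1, an antagonist that Nodal induces, had 13.40 and 12.57 in ESCs, 7.02, 6.26, 5.84 and 5.62 in otospheres and 5.94, 5.31 and 6.41 in CSE. Lefty2, a second such antagonist, had 12.42 and 12.33 in ESCs, 6.41, 7.22, 6.39 and 7.02 in otospheres and 6.27, 7.16 and 6.22 in CSE. The tissues overlapped for all 3 genes, and the differences between otospheres and CSE were -0.10 ± 0.27 for Nodal, 0.30 ± 0.39 for Lefty1 and 0.21 ± 0.30 for Lefty2 (limma adjusted p = 0.918, 0.790 and 0.807). ESCs were above otospheres by 5.82 ± 0.30, 6.80 ± 0.45 and 5.61 ± 0.34 (limma adjusted p = 4.47e-06, 1.70e-05 and 1.01e-05). Among 15 receptors, Smads, proteases and targets of the pathway that were listed with these ligands, 4 were higher and 4 lower in ESCs than in otospheres, with a median difference of -0.06. Over all probes, 15.6% were higher and 12.1% lower in ESCs than in otospheres. In otospheres against CSE, 4.84% of all probes were higher and 6.19% lower. Of the same 15, 0 were higher and 2 were lower in otospheres than in CSE: Pcsk6, a protease that cleaves the Nodal precursor, by -3.71 ± 0.48 (limma adjusted p = 0.00165), and the receptor Acvr2b by -1.77 ± 0.25 (limma adjusted p = 0.00274).

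Esrrb, an orphan nuclear receptor of the naive network that is also known from the inner ear, was lower in otospheres than in the epithelium. It had 14.91 and 14.19 in ESCs, 6.59, 5.71, 6.56 and 6.43 in otospheres and 10.90, 10.27 and 8.35 in CSE. The 3 groups did not overlap, with CSE between the others. The difference of otospheres from CSE was -3.52 ± 0.55 (SE, limma adjusted p = 0.00407), with -4.43 within slide 1 and -1.86 within slide 2. It passed the threshold in each of the 21 alternatives that were run, between -4.26 and -2.99. ESCs were 8.23 ± 0.62 above otospheres (limma adjusted p = 3.36e-05) and 4.71 ± 0.65 above CSE (limma adjusted p = 0.000792). A further probe, named Esrrb in the tables of the study, had 8.50 and 6.33 in ESCs but between 5.05 and 5.48 in all otosphere and CSE samples. That probe was well above background on 1 of 6 otosphere arrays and 1 of 3 CSE arrays, so that it could hardly show a difference between the tissues.

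Tfcp2l1, a factor of the naive network induced by LIF through Stat3, went the other way. It had 12.60 and 10.85 in ESCs, 9.11, 9.10, 9.10 and 8.75 in otospheres and 7.60, 7.46 and 7.49 in CSE, so that every otosphere sample was above every CSE sample. The difference was 1.498 ± 0.35 (SE, limma adjusted p = 0.0269), with 1.58 within slide 1 and 1.43 within slide 2, and the second Tfcp2l1 probe gave 1.89 (limma adjusted p = 0.0190). The call was lost with adjusted p-values between 0.0539 and 0.0921 when OS1-2, OS3, OS4-5, CSE1, CSE2 or CSE3 was left out, while the difference stayed between 1.47 and 1.59. ESCs were 2.71 ± 0.40 above otospheres (limma adjusted p = 0.00108) and 4.21 ± 0.42 above CSE (limma adjusted p = 0.000143).

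Sall1, a zinc finger gene of the Sall4 family with roles in kidney, limb and ear, had 10.27 and 10.72 in ESCs, 7.10, 7.25, 7.90 and 7.69 in otospheres and 8.43, 8.33 and 9.13 in CSE. Otospheres were below CSE in every sample, by -1.15 ± 0.27 (limma adjusted p = 0.0295), with -1.21 within slide 1 and -1.34 within slide 2. The call was lost without OS1-2, OS3, CSE1 or CSE3 (adjusted p = 0.0710, 0.0621, 0.0719 and 0.108). Nr5a2, a nuclear receptor that activates Pou5f1, had 10.78 and 11.87 in ESCs, 5.35, 5.80, 5.33 and 5.18 in otospheres and 6.58, 5.92 and 7.0 in CSE. It was well above background on 1 of 6 otosphere arrays and all 3 CSE arrays, but the difference of -1.09 ± 0.33 did not pass the threshold (limma adjusted p = 0.0731). It passed without CSE2 (limma adjusted p = 0.0427) and without either ESC line. The other Nr5a2 probe was well above background in ESCs alone and gives no measure of a difference between the tissues.

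**Figure D3:**
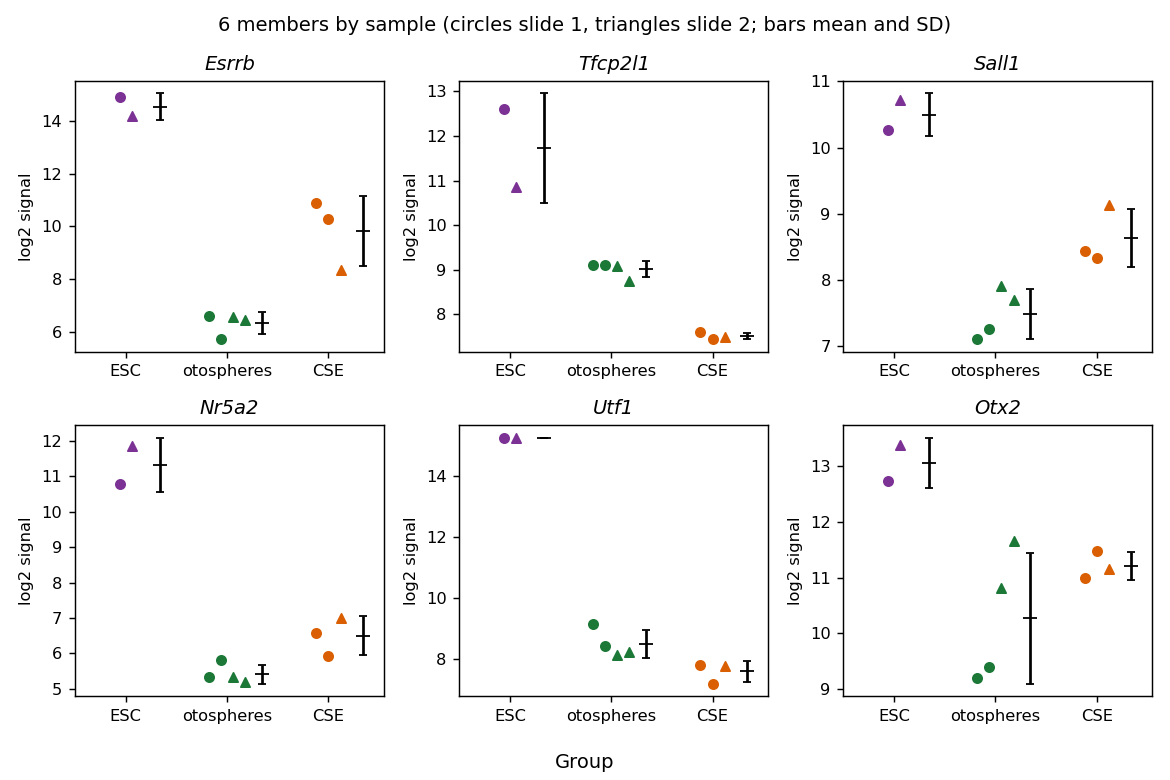
Log2 signal of 6 genes in each sample, with circles for slide 1 and triangles for slide 2 and the mean and SD of each group beside them. CSE lies between otospheres and ESCs for Esrrb and Sall1, otospheres lie between CSE and ESCs for Tfcp2l1, and the otosphere samples of Otx2 divide by slide.

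Markers of the cells of the cochlea differed between the tissues as well, beside the 3 genes that passed the test. In otospheres 9 of 10 neuron markers, 7 of 10 supporting cell markers, 6 of 10 hair cell markers, 6 of 8 glia markers and 2 of 10 mesenchyme markers were lower than in CSE. For comparison, 6.19% of all probes were lower in otospheres than in CSE. The mean log2 level over the 10 supporting cell markers was 8.77 to 9.38 in otospheres and 11.2 to 11.7 in CSE. It was 7.25 to 9.32 and 10.0 to 10.4 over the 10 hair cell markers, 7.60 to 8.17 and 10.99 to 11.99 over 10 neuron markers, 6.04 to 7.59 and 8.96 to 9.56 over 8 glia markers, and 6.84 to 11.3 and 11.7 to 12.1 over 10 otic mesenchyme markers. In otospheres 1 supporting cell marker and 1 neuron marker were well above background on no array, and 0 markers of the other lists were. Their part in the differences of Esrrb, Tfcp2l1 and Sall1 was not tested.

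Tbx3, a T-box factor of the naive network, had 12.91 and 10.74 in ESCs, 9.12, 9.93, 8.66 and 8.71 in otospheres and 10.53, 9.95 and 10.17 in CSE. It was 2.72 ± 0.57 higher in ESCs than in otospheres (limma adjusted p = 0.00673), and the difference of 1.61 ± 0.60 from CSE did not pass the threshold (limma adjusted p = 0.0779) but did without D3 (2.69, adjusted p = 0.00589) and with slide as a block (1.76, adjusted p = 0.0233). Otx2, a homeobox factor of the formative state and of the developing ear, had 12.74 and 13.38 in ESCs, 9.21, 9.41, 10.82 and 11.66 in otospheres and 10.99, 11.48 and 11.15 in CSE. The otosphere samples of slide 1 were below all CSE samples, and OS6 on slide 2 was above them. The difference between otospheres and CSE was -0.93 ± 0.56 (limma adjusted p = 0.406), with -1.93 within slide 1 and 0.09 within slide 2, and slide and preparation cannot be told apart here. The mean of the mesenchyme markers was 10.9 in OS1-2, 11.3 in OS3, 9.47 in OS4-5 and 6.84 in OS6, and that of the hair cell markers was 7.88, 7.25, 8.80 and 9.32. Their part in the Otx2 values was not tested. ESCs were 2.78 ± 0.63 above otospheres for Otx2 (limma adjusted p = 0.0100), which was lost without D3 (adjusted p = 0.0744), and 1.85 ± 0.67 above CSE (limma adjusted p = 0.0691), which passed without OS1-2 (adjusted p = 0.0493) or OS6 (adjusted p = 0.0207) and with slide as a block (1.68, adjusted p = 0.0414). Jarid2, a cofactor of the Polycomb complex PRC2, had 11.59 and 12.50 in ESCs, 9.11, 9.53, 9.19 and 8.54 in otospheres and 9.37, 9.48 and 9.15 in CSE, with ESCs 2.95 ± 0.32 above otospheres (limma adjusted p = 0.000233). Of 10 PRC2 subunits, 4 were higher and 1 was lower in ESCs than in otospheres, beside 15.6% and 12.1% of all probes. In otospheres 1 subunit, Aebp2, was higher than in CSE, by 2.24 ± 0.57 (limma adjusted p = 0.0361), beside 4.84% of all probes.

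**Figure D4:**
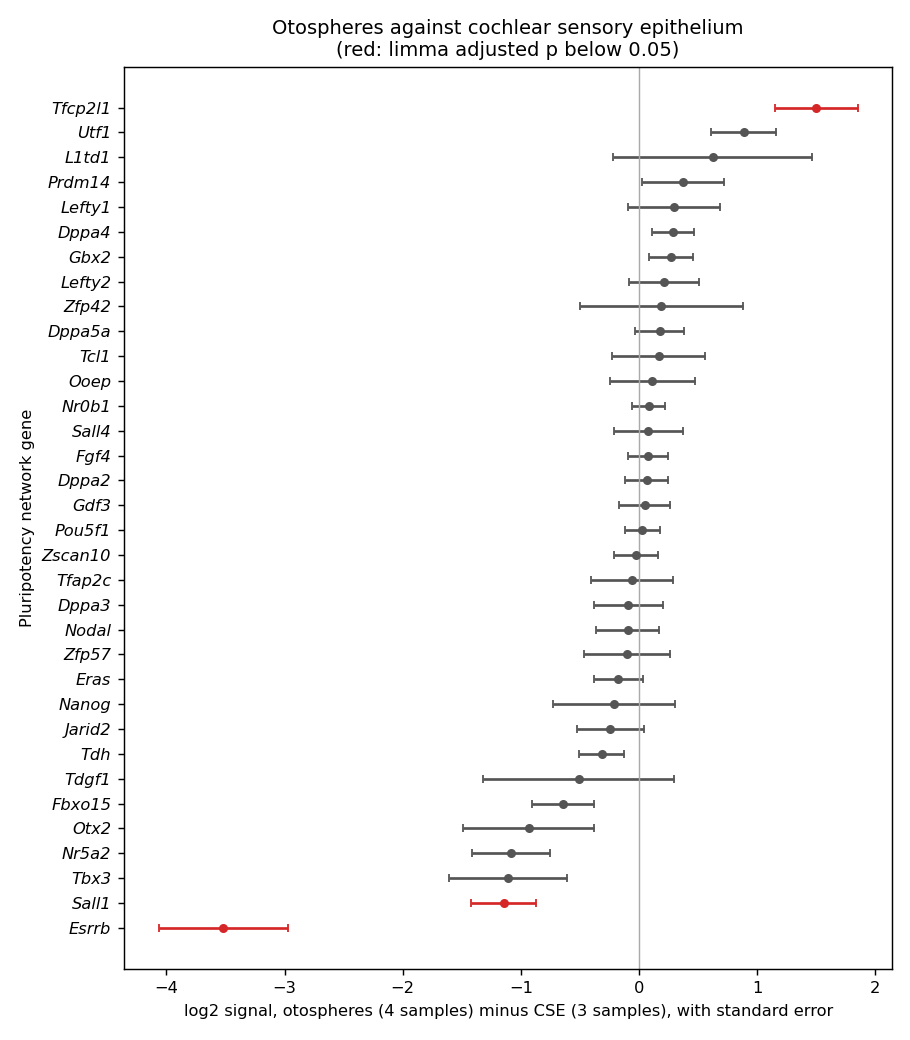
Otospheres minus CSE on the log2 scale for the 34 genes, with the standard error of the limma fit, ordered by size. For the 9 genes well above background in neither tissue the value is not a measured difference. Red marks the 3 genes past the threshold: Esrrb at -3.52 and Sall1 at -1.15 are lower in otospheres and Tfcp2l1 at 1.498 is higher.

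The wider set of pluripotency factors in the same samples showed smaller contrasts. Of 23 listed factors outside the 34 genes, 13 were higher and 1 was lower in ESCs than in otospheres, beside 15.6% and 12.1% of all probes. The median difference of the 23 was 1.83. Between otospheres and CSE, 2 were higher and 3 were lower in otospheres, beside 4.84% and 6.19% of all probes. The higher ones were Stat3, which carries the LIF signal, by 1.87 ± 0.29 (limma adjusted p = 0.00415), and Klf5, a Kruppel-like factor, by 2.34 ± 0.56 (limma adjusted p = 0.0288). Stat3 had 14.03, 13.61, 13.25 and 12.78 in otospheres, above both ESC samples (12.14 and 12.04, limma adjusted p = 0.0158 for the difference of -1.33) and all CSE samples (11.89, 11.27 and 11.49). Sox2, the partner of Oct4 and a factor of the prosensory epithelium, was lower in otospheres than in CSE by -2.76 ± 0.27 (limma adjusted p = 0.000424), with 12.67 and 12.50 in ESCs, 7.95, 7.67, 8.74 and 8.56 in otospheres and 10.92, 10.85 and 11.20 in CSE. Tet1, which oxidises methylcytosine, was lower by -2.44 ± 0.28 (limma adjusted p = 0.000988), and Mycn, a Myc family gene, by -2.02 ± 0.35 (limma adjusted p = 0.00670).

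Genes of the neighbouring states gave other counts. For comparison, 15.6% of all probes were higher and 12.1% lower in ESCs than in otospheres. Between otospheres and CSE, 4.84% of all probes were higher and 6.19% lower in otospheres. Of 13 tested genes of the formative and primed epiblast, 8 were higher and 1 was lower in ESCs than in otospheres, and 1 was higher and 6 were lower in otospheres than in CSE. The median difference was -1.54. Those lower were Foxd3 (-3.02), Tcf15, Pou3f1, Sox3 (-2.99), the cadherin Cdh2 (-2.54) and the methyltransferase Dnmt3a (-1.55). The higher gene was the ligand Fgf5 (1.90, limma adjusted p = 0.0288). Foxd3 (limma adjusted p = 0.0499) is also in the list of glia markers, so that both counts of lower genes include it. Of 11 tested germline genes, 9 were higher in ESCs than in otospheres and 0 were lower, and between otospheres and CSE 1 was lower, Nanos3, by -1.21 ± 0.25 (limma adjusted p = 0.0167). Of 12 genes of primitive endoderm and trophoblast, 5 were higher and 2 lower in ESCs than in otospheres. Between otospheres and CSE, the keratin Krt7 was 5.71 ± 0.49 higher (limma adjusted p = 0.000239) and Sox17, well above background on no otosphere array, was at least 5.64-fold higher in CSE (limma adjusted p = 0.00142).

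The ESC lines differed in part of the network. With 1 array a line, on different slides, line and slide cannot be told apart, and the values are a description. In D3, 3 genes were higher by more than 1 on the log2 scale and 8 were lower, against 7.53% and 6.73% of all probes. The network genes were all well above background on both ESC arrays, whereas the shares are over all kept probes, dim ones included. Zfp42 was 3.69 higher in D3, L1td1 was 2.60 higher and Nr5a2 was 1.09 higher. The genes lower in D3 were Tdgf1 (-2.58), Tbx3 (-2.16), Tcl1 (-1.91), Ooep (-1.80), Tfap2c (-1.74), Tfcp2l1 (-1.74), Prdm14 (-1.68) and Dppa3 (-1.35). The core gene Pou5f1 differed by 0.25, Dppa5a by 0.09, Utf1 by -0.0040 and Dppa2 by 0.02. The 2 other Nanog probes were lower in D3, by -1.92 and -1.52, while the selected probe differed by -0.24. The other Tfcp2l1 probe was also lower in D3 (-1.90), and the other Tdgf1 probes differed by -0.76 and -0.67.

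**Figure D5:**
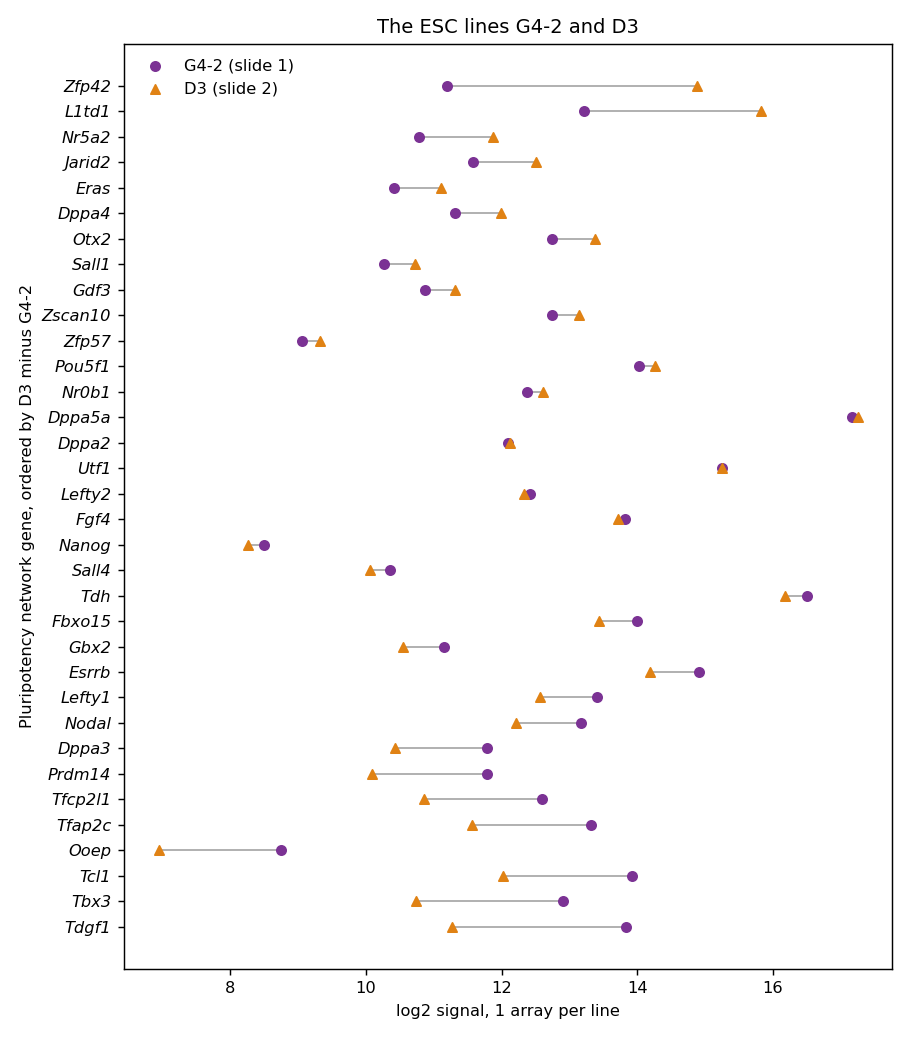
Log2 signal of the 34 genes in the G4-2 and D3 lines, 1 array each, ordered by D3 minus G4-2. Zfp42 at 11.19 and 14.89 lies at the top, Tdgf1 at 13.84 and 11.26 at the bottom, and the core gene Pou5f1 at 14.02 and 14.27 in the middle.

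Several of the 34 genes lie side by side in the genome. In the order of protein-coding genes (RefSeq, GRCm38.p6), Gdf3, Dppa3 and Nanog follow each other with 0 genes between, as do Dppa4 and Dppa2, and Dppa5a and Ooep. The neighbours of the network genes that are not themselves in the network numbered 59, of which 55 were tested. Of these 20 were higher and 11 lower in ESCs than in otospheres, beside 15.6% and 12.1% of all probes. Against CSE, 18 were higher and 11 lower in ESCs, beside 15.6% and 13.2% of all probes. Each neighbour was measured by its brightest probe, whereas the shares are over all kept probes, dim ones included. Slc2a3, the glucose transporter gene beside Nanog, was 7.54 higher in ESCs than in otospheres (limma adjusted p = 0.000255). Triml2 beside Zfp42 was 5.67 higher (limma adjusted p = 0.000187), Fgf15 beside Fgf4 was 4.33 higher (limma adjusted p = 5.16e-05), and Ddx43 beside Ooep was 3.73 higher (limma adjusted p = 6.61e-05). These 4 were named after their values were seen.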

How the data were processed

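Cy3-labelled RNA was read from 11 single-colour mouse arrays, and the authors deposited the scanner files (Agilent Feature Extraction 10.7.3.1, build mm9), whose median spot and background signals are intensities on a linear scale, and a table of log2 values. The deposited flags are scores of 0 or 1 for a spot well above background or saturated. From the intensities, signals were corrected with normexp (offset 16), put on the log2 scale and quantile-normalised in limma 3.58.1 (R 4.3.3), after the methods of the study. Probes were kept where they exceeded the 95th percentile of the 308 negative controls by 10% or more on 2 or more arrays. Groups were compared with limma (3 group means, Benjamini-Hochberg adjustment over 47997 probes, threshold 0.05), which was tested on simulated data. Probes were named by RefSeq accession, and 2047 probes had different names on the slides. A gene's probe was the one with the highest mean of the 3 group means. Sample values are given for genes detected on all otosphere or all CSE arrays, those that differed between these tissues, and 10 core genes. Genes of other lists are named where they passed the test between otospheres and CSE, most with values. The members and lists were chosen with earlier results of these data known. The alternatives were another offset, another normalisation, the deposited table, other filters, separate arrays, slide or replicate number as a block, single samples left out and other probes. The number of arrays limits the precision.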

Additional observations from a re-analysis of the deposited data

Results flagged for a closer look

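For Tfcp2l1, otosphere sample OS6 had a log2 signal of 8.75, apart from the other otosphere samples at 9.10, 9.10 and 9.11. The gap was large for the range of the group, which was 0.36, by Dixon's test. This test flags about 1 in 20 groups of 4 by chance and was run for each of the 34 genes. OS6 was still above all CSE samples, and without it the difference between otospheres and CSE was 1.59 (limma adjusted p = 0.0421).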

How the results depend on the processing

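Under the alternatives, 111 counts of genes stayed within 1.5 times the reported count, 4 rose and 11 fell. For genes higher in otospheres than in CSE the count was 0 with the scaling to the 75th percentile, 2 with every array as a separate sample and 2 with the replicate block, and 0 to 1 when single samples were left out. The number lower was 1 to 4, and the number lower in ESCs than in otospheres was 0 to 1 (Nanog without OS4-5). Of the differences, 1369 kept sign and call, 32 gained the call, 19 lost it and 29 changed sign. The scaling also lost the calls of Tfcp2l1 (adjusted p = 0.0607) and Sall1 (adjusted p = 0.0708). Small differences between otospheres and CSE changed sign: with the scaling, Gdf3 to -0.091 and Ooep to -0.11, with separate arrays, Zscan10 to 0.024, with the replicate block, Sall4 to -0.013, Dppa5a to -0.10, Gdf3 to -0.054 and Ooep to -0.015, and with the mean of all probes, Sall4 to -0.027. With that mean Nanog was 2.31 higher in ESCs than in otospheres and 2.30 higher than in CSE, and with the probe of the highest group mean, chosen after seeing the data, 8.99 and 8.80. Leaving out single samples gave ranges of -0.044 to 0.11 for Pou5f1, -0.53 to 0.12 for Nanog, -0.099 to 0.093 for Zscan10, -0.18 to 0.061 for Nodal, -0.56 to 0.20 for Zfp57, -0.15 to 0.34 for Sall4, -0.10 to 0.15 for Gdf3 and -0.97 to 0.11 for Tdgf1. The cause of these changes was not tested. Replicate numbers did not pair the samples (correlations of deviations between -0.362 and 0.359), and with the replicate block the Otx2 difference between otospheres and CSE was -1.93 (limma adjusted p = 0.00269). Nr5a2 differed between otospheres and CSE past the threshold with offset 0 (-1.48, limma adjusted p = 0.0449), the scaling (-2.74, adjusted p = 0.0253), the deposited table (adjusted p = 0.0444) and separate arrays (-1.11, adjusted p = 0.0183). With the probe of the highest group mean, the fitted median difference of ESCs was 6.97 from otospheres and 7.14 from CSE, against fitted medians of 5.95 and 5.93.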
